A study of Homo sapiens and Mus musculus with 28 samples.

Results

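Libraries labelled KO_2_BX_795, REXO4-knockout SCC1 cells given the kinase inhibitor BX-795, were compared with libraries labelled Ctrl_Vehicle, control SCC1 cells given vehicle. The 3 libraries of each group were chosen by their sample titles, 6 of the 28 libraries of the series. SCC1 is an established human squamous carcinoma cell line. The study asked how loss of the RNA exonuclease REXO4 changes gene expression in this line and in mouse tumors. R4KO_2_Vehicle, with 3 libraries of knockout cells given vehicle, serves here as the untreated knockout, since it carries the same number; that the cells are the same line is read from that number alone. KO_2_H151, with 3 libraries of KO_2 cells given H-151, an inhibitor of the adaptor STING, is the group most like the BX-795 libraries. The labels give no dose and no time for either inhibitor, and do not say whether a knockout number stands for a clone or a pool. No library holds control cells with BX-795, so the effect of the drug outside the knockout and the effect of its culture cannot be told apart from the change in the knockout. Nothing in the labels states whether replicates were separate cultures; the p-values therefore measure only the spread between these libraries, which may be technical. The labels also name the molecule as genomic DNA, while the protocol describes poly(A)-selected RNA, and the values were read as RNA.

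REXO4 belongs to a family of RNA exonucleases, and the study's title ties it to R-loops, structures in which nascent RNA pairs with the DNA template. Cytosolic DNA or RNA with such structures can be sensed by cGAS and by the RIG-I-like receptors. These signal through STING and MAVS to the kinases TBK1 and IKK-epsilon, which phosphorylate the transcription factor IRF3 and so switch on type I interferon. Secreted interferon then acts through the kinases JAK1 and TYK2 on genes that carry the interferon-stimulated response element (ISRE) in their promoters, the interferon-stimulated genes. The same sensors also activate NF-kB, a family of transcription factors that drives chemokines, cytokines and its own inhibitors. BX-795 was first made as an inhibitor of the kinase PDK1 and is used as an inhibitor of TBK1 and IKK-epsilon; it also acts on other kinases.

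Some promoters of genes from both branches hold the sequence elements that these factors read, and all those printed below do. The windows run from 250 bases before to 50 bases after the RefSeq start site (GRCh38.p14), and capitals mark a match on either strand. HERC5 (chr4:88456869-88457168, plus strand) and IFIT3 (chr10:89327747-89328046, plus strand) are shown because both were above control in the vehicle knockout and below it with BX-795. Capitals in them mark an ISRE core, spelled here as GAAA, any 2 bases, GAAA, which reads TTTC on the strand printed. CXCL2 (chr4:74099146-74099445, minus strand), CXCL3 (chr4:74038640-74038939, minus strand) and CCL20 (chr2:227813592-227813891, plus strand) are shown as chemokine genes that were called above control with BX-795, and capitals in them mark an NF-kB site, spelled as GGGAA, any 3 bases, CC.
HERC5: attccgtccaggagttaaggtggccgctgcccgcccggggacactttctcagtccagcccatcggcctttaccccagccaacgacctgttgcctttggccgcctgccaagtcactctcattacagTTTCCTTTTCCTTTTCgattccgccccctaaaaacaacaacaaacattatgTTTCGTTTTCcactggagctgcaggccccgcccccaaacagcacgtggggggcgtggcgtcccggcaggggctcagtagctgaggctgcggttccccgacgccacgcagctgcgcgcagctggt
IFIT3: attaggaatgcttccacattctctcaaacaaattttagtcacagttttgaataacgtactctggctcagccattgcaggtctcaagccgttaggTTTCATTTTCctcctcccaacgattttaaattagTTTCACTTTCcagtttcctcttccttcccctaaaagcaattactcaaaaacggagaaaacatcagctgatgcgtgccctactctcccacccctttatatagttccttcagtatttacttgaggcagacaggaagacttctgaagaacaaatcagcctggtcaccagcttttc
CXCL2: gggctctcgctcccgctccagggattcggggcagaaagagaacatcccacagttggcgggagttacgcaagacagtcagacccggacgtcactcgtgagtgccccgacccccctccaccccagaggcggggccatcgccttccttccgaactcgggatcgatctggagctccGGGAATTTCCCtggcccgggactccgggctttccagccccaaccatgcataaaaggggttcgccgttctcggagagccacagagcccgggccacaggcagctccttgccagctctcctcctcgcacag
CXCL3: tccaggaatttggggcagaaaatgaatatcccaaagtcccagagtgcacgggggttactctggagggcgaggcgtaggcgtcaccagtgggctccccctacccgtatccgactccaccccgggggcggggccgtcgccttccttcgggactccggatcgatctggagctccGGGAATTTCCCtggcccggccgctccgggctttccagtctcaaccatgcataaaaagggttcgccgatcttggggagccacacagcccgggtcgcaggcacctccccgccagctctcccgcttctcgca
CCL20: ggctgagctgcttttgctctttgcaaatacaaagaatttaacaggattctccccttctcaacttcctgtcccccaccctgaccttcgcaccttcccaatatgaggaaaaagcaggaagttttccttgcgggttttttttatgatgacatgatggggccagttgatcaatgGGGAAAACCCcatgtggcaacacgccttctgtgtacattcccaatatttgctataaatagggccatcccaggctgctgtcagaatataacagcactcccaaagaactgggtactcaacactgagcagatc
HERC5 held 3 ISRE cores, starting 125, 119 and 74 bases before the start site, the first 2 of which overlap. IFIT3 held 2, at 156 and 122 bases. In CXCL2 and CXCL3 the capitals are a single stretch that reads as an NF-kB site on each strand, starting 78 and 79 bases before the start site, and the stretch is the same in both genes. CCL20 held 1 NF-kB site at 80 bases. An ISRE core was found in 35 of the 54 interferon-stimulated genes with a window in the table (64.8%), against 3.65% of all 27305 windows. An NF-kB site was found in 4 of 7 tested chemokine genes with a window (57.1%), against 6.92% of all windows. Of the NF-kB subunits and feedback targets only 5 of 21 with a window held 1 (23.8%). That share was close to the 4 of 19 of cholesterol synthesis genes (21.1%). Among interferon-stimulated genes, 22 of the 33 with a window that had gone from above to below control held an ISRE core. This share is near the 64.8% of the whole list, so the core did not set these members apart. A match is a description of the letters and does not show that a factor binds there.

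The targeted gene was measured in every library first. REXO4 (ENSG00000148300, chromosome 9, 133406059 to 133418096, minus strand) stood at 75.2, 77.9 and 71.9 CPM (counts scaled to a common library size with TMM factors) in control, at 7.05, 7.11 and 5.03 in the vehicle knockout, and at 19.6, 18.9 and 18.7 with BX-795. The BX-795 libraries lay below every control library, with a log2 fold change of -1.98 ± 0.0693 (SE, 3 libraries a group; edgeR adjusted p = 1.24e-15), and above every vehicle-knockout library by 1.57 on the log2 scale. The H-151 libraries held a similar mean of 18.1 CPM. An exon of STKLD1 overlaps REXO4 on the other strand, and no source used here gives the strand setting of the counting, so a share of these reads cannot be assigned with certainty.

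The treated libraries differed from the vehicle knockout in further ways that bear on all results. They were deeper, at 21.36 to 27.94 M counts per library against 17.73 to 18.03 M in control and 17.53 to 17.67 M in the vehicle knockout. On the leading principal component, which held 67.7% of the variance, the treated libraries and the vehicle knockout lay on opposite sides of control. A total of 8 genes were under 0.5 CPM in every control and vehicle-knockout library and over 2 CPM in every BX-795 library, namely LTB, MMP9, PI3, PXDN, SLC12A3, SMOC1, TCIM and TMEM156, and 0 genes showed the reverse. Of these, PXDN and SLC12A3 were also present in the other knockout, R4KO_1, at 7.24 to 8.81 CPM and 4.36 to 11.7 CPM. In every KO_2_H151 library 4 of the 8 were over 2 CPM as well: PXDN (10 to 11.4), SLC12A3 (24.1 to 25.9), SMOC1 and TCIM. ACAT2, named after its values were seen, stood at 0.586 to 0.596 CPM in control, 0.053 to 0.214 in R4KO_2, 3.53 to 3.85 with BX-795 and 6.23 to 6.47 in R4KO_1. Whether the treated cells and R4KO_2 came from the same stock was not tested. A separate Vehicle group of the iR4 experiment had a REXO4 mean of 96.1 CPM, and the labels do not state its genotype. It is given beside results where its level bears on them, and was added as context after the data were seen. Of the 8 genes, SLC12A3 was over 2 CPM in every library of that group, at 6.63 to 7.18 CPM. In both groups markers of squamous epithelium were abundant: the sum of 10 such genes was 5500 to 5860 CPM in control and 3710 to 3720 with BX-795, with 9 of the 10 called lower. The 5 leukocyte markers together stayed at or below 0.417 CPM in every library of both groups, with 1 of them at 0 in control and 2 with BX-795. The sum of 5 fibroblast markers was 23.9 to 24.7 CPM in control and 46.8 to 48.3 with BX-795, nearly all of it COL1A1, a collagen chain; COL3A1, another, fell from 104 counts in the control group to 18 (log2 fold change -3.02; edgeR adjusted p = 8.87e-08).

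The BX-795-treated knockout still differed widely from control. Of 14348 genes tested with edgeR's quasi-likelihood test at an adjusted p under 0.05, 3976 (27.7%) were higher and 4020 (28.0%) were lower, and the median gene differed by 0.00 on the log2 scale. A change of 2-fold or more was found in 587 genes (4.09%) that were higher and 391 (2.73%) that were lower. In 7644 genes (53.3%) the difference was called and no BX-795 library overlapped a control library. The vehicle knockout was called higher than control in 4872 genes (34.0%) and lower in 4623 (32.2%). Against the vehicle knockout, the treated knockout was higher in 5227 genes (36.4%) and lower in 5330 (37.1%). Both comparisons with control use the same 3 control libraries, so an error in those libraries moves both in the same direction.

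About 1 in 3 differences of the vehicle knockout from control remained, and 1 in 4 was found on the other side of control. These shares were not far from those of all genes tested, of which 27.7% were higher and 28.0% lower with BX-795. Of the 4872 genes that were higher in the vehicle knockout, 1550 (31.8%) were still higher with BX-795, 1233 (25.3%) were lower than control, and 2089 (42.9%) were no longer called. Among the 1550 that remained, 584 had fallen from the vehicle knockout, 641 had no called change from it and 325 had risen further. Of the 4623 genes lower in the vehicle knockout, 1615 (34.9%) remained lower, 1164 (25.2%) were higher than control and 1844 (39.9%) were no longer called. Among the 4853 genes not called in the vehicle knockout, a further 1262 (26.0%) were higher and 1172 (24.2%) lower with BX-795. Among larger differences the pattern was less even for genes higher in the vehicle knockout. Of 1178 genes that were at least 2-fold higher there, 424 (36.0%) were still called higher and 220 of these by 2-fold. Below control 178 (15.1%) were called, 83 of these by 2-fold. Of 452 genes that were at least 2-fold lower in the vehicle knockout, 125 (27.7%) were still called lower and 94 (20.8%) were called higher. Of the 391 genes at least 2-fold below control with BX-795, 176 (45.0%) had been called higher in the vehicle knockout. Of the 587 at least 2-fold above control, 300 (51.1%) had been called higher there already. Among all genes tested 34.0% were called higher in the vehicle knockout.

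**Figure D1:**
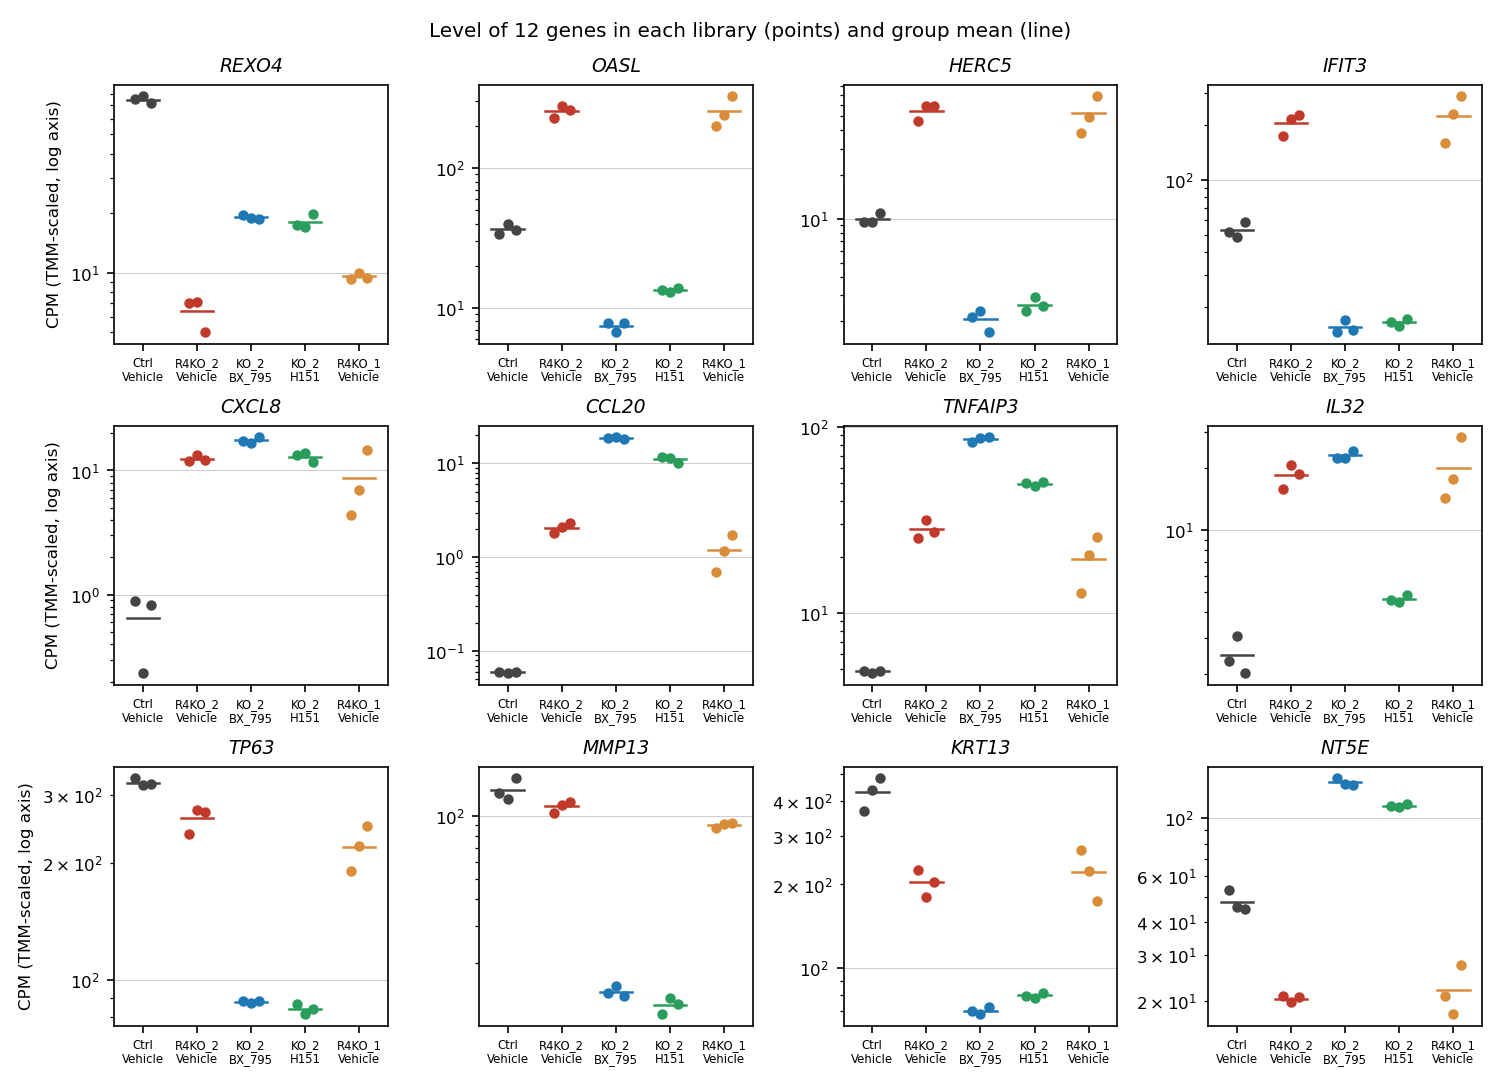
Level of 12 genes in each library of the 5 groups of the knockout experiment, in TMM-scaled CPM on a log axis. Each point is 1 library; OASL, HERC5 and IFIT3 lie below control with BX-795 and above it in the vehicle knockout, while CXCL8, CCL20, TNFAIP3 and IL32 lie above control in both.

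Interferon-stimulated genes were above control in the vehicle knockout and mostly below control once BX-795 was present. Of 68 tested members of a list of 70, 57 were higher than control in the vehicle knockout, and with BX-795 6 were higher and 47 lower, or 8.82% and 69.1% against 27.7% and 28.0% of all genes. The median log2 difference from control was 0.83 in the vehicle knockout, -0.38 with BX-795 and -0.49 with H-151. A total of 41 members crossed from above to below control, 3 remained higher and 62 fell from the vehicle knockout. At 2-fold or more, 15 were below control.

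OASL, an antiviral protein related to the oligoadenylate synthetases, stood at 33.7, 39.5 and 36.2 CPM in control, 227, 276 and 262 in the vehicle knockout and 7.75, 6.74 and 7.80 with BX-795. The groups did not overlap in either direction, and the log2 fold change from control was -2.29 ± 0.168 with BX-795 (edgeR adjusted p = 2.12e-10) after 2.81 in the vehicle knockout. HERC5, the ligase that attaches ISG15 to newly made proteins, stood at 9.48, 9.44 and 11 CPM in control, 46.6, 58.6 and 58.3 in the vehicle knockout and 2.12, 2.36 and 1.69 with BX-795 (log2 fold change from control -2.29 ± 0.255). DDX60, a helicase that promotes RIG-I signalling, stood at 44.4, 39.6 and 49.1, at 116, 133 and 142, and at 7.87, 7.65 and 9.42 CPM in the same order. Its fall from control, -2.41 ± 0.136, was the largest on the list. In each of the 3 genes every treated library was below every control library and every control library below every vehicle-knockout library.

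The IFIT proteins, which bind viral RNA, moved in the same way. IFIT3 stood at 51.9, 48.7 and 58.9 CPM in control, 175, 215 and 226 in the vehicle knockout and 14.6, 16.9 and 15 with BX-795. IFIT2 stood at 46.0, 43.1 and 48.0, at 150, 183 and 186, and at 11.3, 11.4 and 11.7 CPM. Their log2 fold changes from control with BX-795 were -1.78 ± 0.170 and -1.99 ± 0.167 (edgeR adjusted p = 1.37e-08 and 1.82e-09). An exon of LIPA overlaps IFIT2, and IFIT genes are close copies of one another, so the split of reads among them is uncertain. OAS2, which makes the second messenger that activates RNase L, stood at 3.70, 3.69 and 5.11 CPM in control, 17.9, 24.5 and 22.6 in the vehicle knockout and 1.43, 1.11 and 1.18 with BX-795. PRR15, a small protein outside the list, had the same shape, at 3.46, 3.34 and 4.58, at 15.6, 19.1 and 20.1, and at 1.06, 1.01 and 1.07 CPM.

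A smaller set returned to control or stayed above it. RSAD2, the antiviral enzyme viperin, stood at 0.477, 0.352 and 0.654 CPM in control, 11.2, 13.4 and 13.7 in the vehicle knockout and 0.448, 0.385 and 0.515 with BX-795. ISG20, an exonuclease that degrades viral RNA, stood at 2.44, 2.70 and 2.26, at 24.1, 30.0 and 23.4, and at 2.81, 2.50 and 3.17 CPM. In both genes the treated and control libraries overlapped and the difference was not called; both were named after their values were seen. PARP10, PML and HELZ2 remained above control, by 0.40, 0.40 and 0.44 on the log2 scale, after 1.16, 0.60 and 0.81 in the vehicle knockout. MX1, LAP3 and EPSTI1, the other members above control with BX-795, had not been higher in the vehicle knockout.

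In the Vehicle group of the iR4 experiment the same list had a median of -0.38 from control, close to that of the BX-795 libraries, although it had been given no inhibitor by its label. Member by member the levels differed: OASL had a mean of 33.8 CPM there against 7.75, 6.74 and 7.80 with BX-795, and HERC5 6.18 CPM, while PARP9, a partner of the ligase DTX3L, had 37.5 CPM against 39.7, 38.8 and 37.9. How much of the difference from control in the treated cells is shared with the Vehicle group of the iR4 experiment was not tested.

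**Figure D2:**
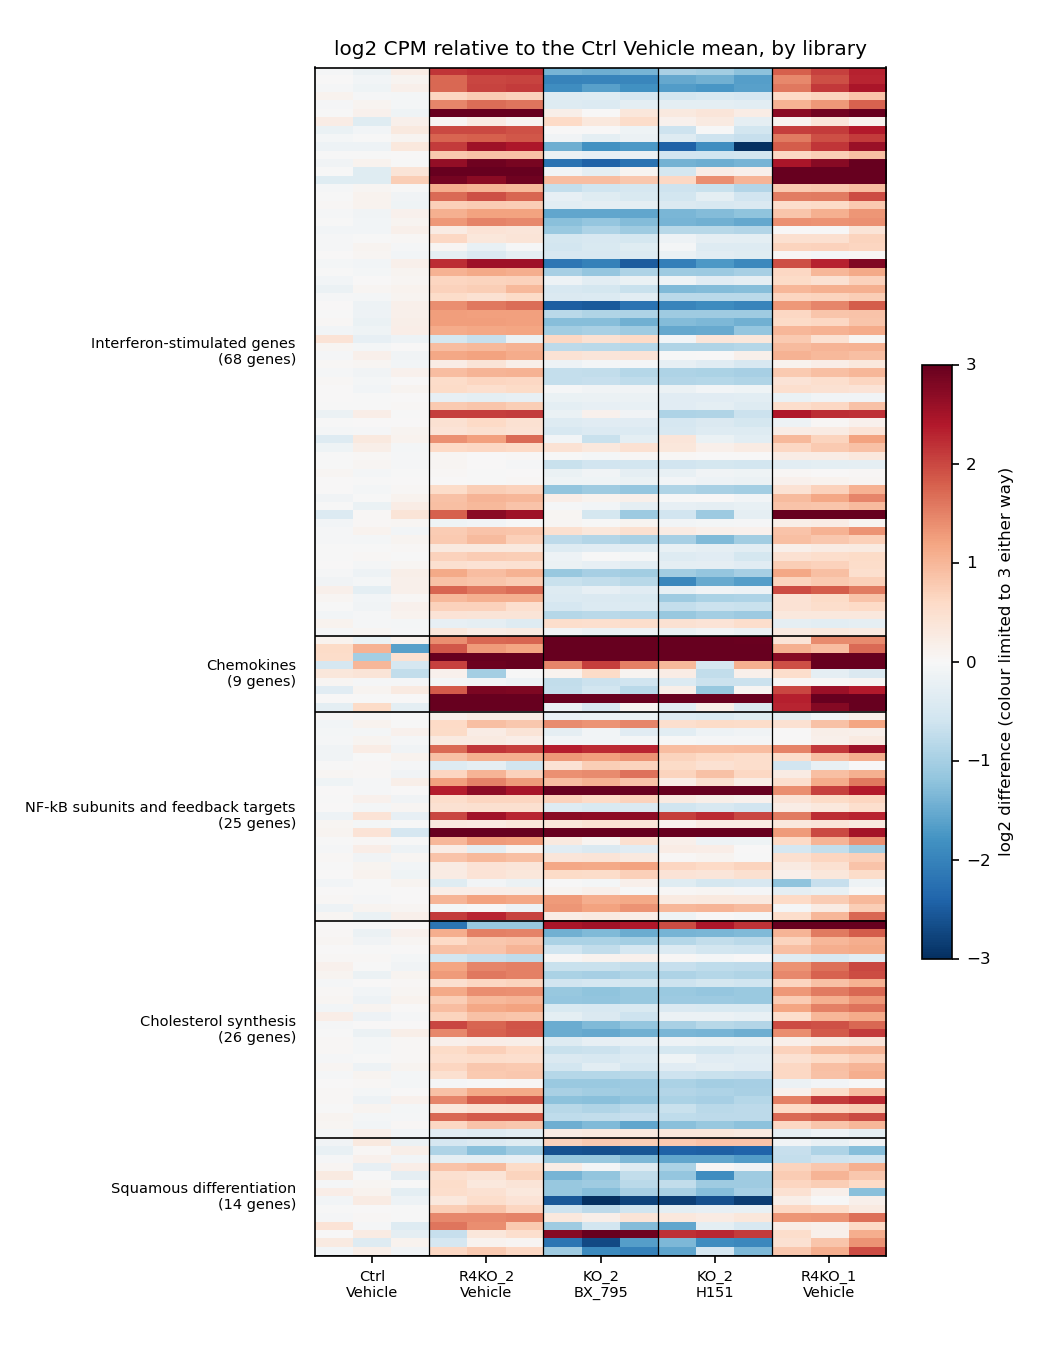
Log2 level relative to the control mean for tested members of 5 gene lists (rows) in the 15 libraries of the knockout experiment (columns). Of the interferon-stimulated genes, 57 of 68 were higher in the vehicle knockout and 47 were lower with BX-795. With BX-795, 5 of 9 chemokine genes and 16 of 25 NF-kB genes were higher, and 23 of 26 cholesterol synthesis genes were lower. Among all genes tested 27.7% were higher and 28.0% lower with BX-795.

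The sensors upstream of interferon had a median closer to control than the interferon-stimulated genes. Of 15 tested genes of RNA sensing, 1 was higher (6.67%) and 9 lower (60%) than control with BX-795, with a median of -0.19. Among all genes the shares were 27.7% and 28.0%. RIGI, the receptor of viral RNA ends, went from 2.28 above control in the vehicle knockout to -1.13 with BX-795 on the log2 scale, and IFIH1, the receptor of long RNA duplexes, from 1.13 to -0.58. MAVS, the adaptor of both receptors, stood at 131, 150 and 133 CPM in control, 168, 167 and 171 in the vehicle knockout and 107, 111 and 103 with BX-795 (-0.37 ± 0.0464; edgeR adjusted p = 8.16e-07). TICAM1, the adaptor of TLR3, was the member that was higher with BX-795, by 0.28.

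The gene of the drug's target and those of its pathway were examined next. Of 20 tested genes of the TBK1 and STING pathway, 6 were higher (30%, near the 27.7% of all genes) and 3 lower (15%, against 28.0%) than control, with a median of 0.01, against 0.37 in the vehicle knockout. TBK1 itself stood at 60.6, 53.5 and 64.8 CPM in control and 58.6, 55.1 and 56.8 with BX-795, with no called difference (log2 -0.07; edgeR adjusted p = 0.317), although without control replicate 2 it was called lower, at -0.14; its difference ran from -0.14 to -0.01 over the settings run. IRF3, its substrate, stood at 75.6, 87.6 and 80.4 against 76.6, 79.8 and 80.8 CPM, which overlap, and PDPK1, the gene of PDK1, at 51.4, 53.9 and 52.6 against 52.8, 53.5 and 54.4. STING1 and CGAS were above control in the vehicle knockout by 0.58 and 0.48 on the log2 scale and both were at 0.00 with BX-795. Exons of BCL2L12 overlap IRF3 and exons of DDX43 overlap CGAS.

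Among the exceptions were the other kinase of the pair and the interferon-inducible IRF. IKBKE, the gene of IKK-epsilon, stood at 14.8, 14.8 and 14.5 CPM in control, 15.6, 15.5 and 15.7 in the vehicle knockout and 26.7, 24.9 and 25.2 with BX-795. Its difference from control was 0.80 ± 0.0797 with BX-795 (edgeR adjusted p = 2.55e-08) and was not called in the vehicle knockout. IRF7 stood at 4.53, 5.04 and 4.64 CPM in control, 18.2, 21 and 19.1 in the vehicle knockout and 13.6, 11.5 and 15.1 with BX-795, a remaining difference of 1.51 ± 0.119. IFI16, a nuclear DNA sensor, crossed from 0.34 above control to -1.03. Of the interferons, IFNB1 had 0 counts in control and 2 with BX-795 and was not tested.

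Of 20 tested genes of interferon receptors and JAK-STAT signalling, 3 were higher (15%) and 10 lower (50%) than control with BX-795. The shares of all genes were 27.7% and 28.0%. From above to below control 8 members crossed, and the list's median was -0.15 after 0.45 in the vehicle knockout. IRF1, a transcription factor induced by interferon, stood at 56.3, 57.5 and 52.6 CPM in control, 91.1, 99.2 and 97.9 in the vehicle knockout and 37.6, 39.4 and 39.5 with BX-795 (-0.51 ± 0.0753; edgeR adjusted p = 5.62e-06). STAT2, a transcription factor of the pathway, was at -0.16 with BX-795 after 1.01 in the vehicle knockout, and IFNAR1 and IFNAR2, the receptor chains of type I interferon, had no called difference. SOCS1, an inhibitor of JAK kinases, remained above control, by 0.88 after 1.35.

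MHC class I presentation displays peptides to cytotoxic T cells. With BX-795, 16 of its 21 tested genes were below control (76.2%, against 28.0% of all genes). Only 1 was higher (4.76%, against 27.7%), and the median was -0.57. B2M, the light chain of class I molecules, stood at 1130, 1070 and 1170 CPM in control, 1650, 1720 and 1730 in the vehicle knockout and 699, 716 and 720 with BX-795. The log2 fold change of B2M from control with BX-795 was -0.66 ± 0.0412 (edgeR adjusted p = 1.59e-11). NLRC5, the transactivator of class I genes, was at -1.05 after 0.36, and 11 members crossed from above to below control. The peptide transporter gene TAP1 returned to the control level, at 0.05 after 0.66. For this list the median was -0.73 with H-151 and -0.53 in the Vehicle group of the iR4 experiment.

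Of the 4 tested APOBEC3 cytidine deaminases, which mutate viral DNA, 3 were below control with BX-795 (75%, against 28.0% of all genes). The list's median was -0.57 after 1.51 in the vehicle knockout. In the reported fit 0 members were called higher, but in 6 of the other settings run up to 2 were. APOBEC3B stood at 15.7, 14.9 and 15.7 CPM in control, 47.7, 47.2 and 51.2 in the vehicle knockout and 10.3, 9.96 and 9.75 with BX-795 (-0.62 ± 0.0850). APOBEC3F, at -0.52, lost its call without BX-795 replicate 1 and without control replicate 3, where its edgeR adjusted p reached 0.0656. Exons of APOBEC3A overlap APOBEC3B.

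**Figure D3:**
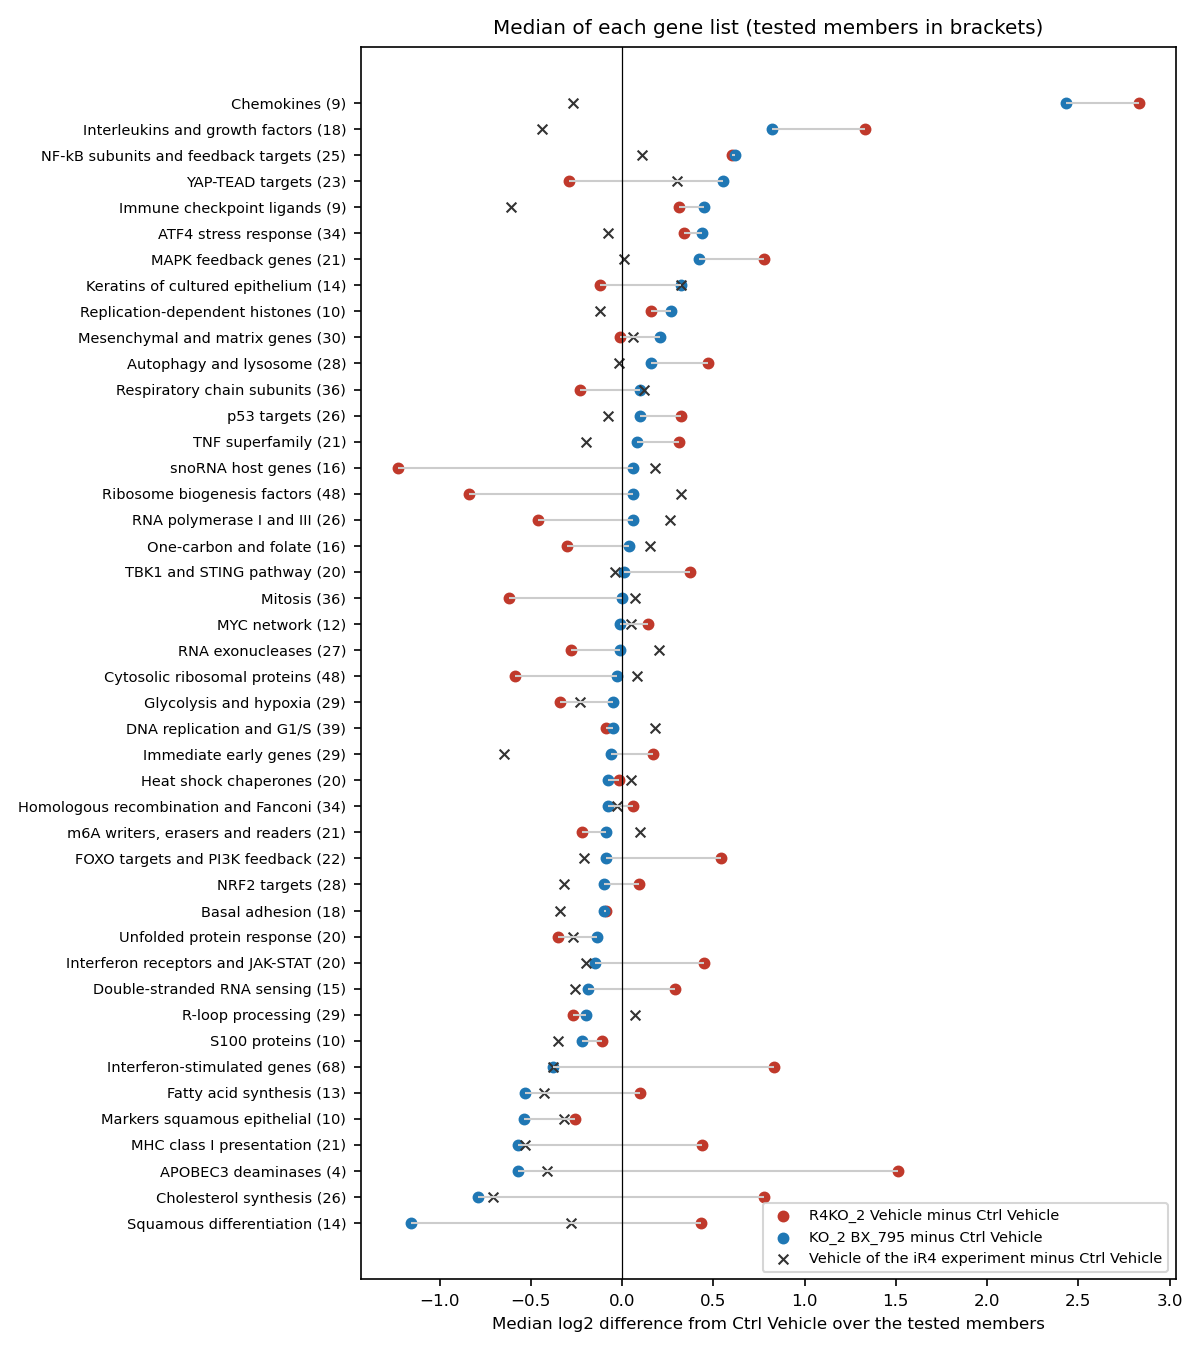
Median log2 difference from control over the tested members of each gene list with at least 4 of them, for the vehicle knockout (red), the BX-795-treated knockout (blue) and the Vehicle group of the iR4 experiment (crosses). The interferon-stimulated list moves from 0.83 to -0.38 and the cholesterol list from 0.78 to -0.79, while the NF-kB list stays near 0.6.

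NF-kB genes did not follow the interferon genes: most remained above control, and several were higher than in the vehicle knockout. Of 25 tested NF-kB subunits and feedback targets, 16 were higher (64%) and 2 lower (8%) than control with BX-795. Of all genes 27.7% were higher and 28.0% lower. The list had 10 genes higher by 2-fold and a median of 0.62, against 0.60 in the vehicle knockout. A total of 14 remained higher, 10 rose from the vehicle knockout and 9 fell from it. The list's median in the Vehicle group of the iR4 experiment was 0.11.

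TNFAIP3, the ubiquitin-editing enzyme A20 that shuts off NF-kB, stood at 4.89, 4.75 and 4.88 CPM in control, 25.3, 31.5 and 27.3 in the vehicle knockout and 82.7, 87.0 and 87.8 with BX-795. The 3 groups were fully separate, and the log2 fold change from control was 4.15 ± 0.152 (edgeR adjusted p = 2.34e-15). TRAF1, an adaptor of TNF receptors, stood at 0.775, 0.997 and 0.476, at 7.21, 9.57 and 8.08, and at 19.2, 16.9 and 17.6 CPM (4.57 ± 0.218). BIRC3, an inhibitor of apoptosis, and RELB, a subunit of the alternative NF-kB pathway, were 2.75 and 2.30 above control. Of the inhibitors, NFKBIA was higher by 1.29 and NFKBIE by 1.49. NFKB1 was 0.20 below control, and RELA had no called difference. CD83, a surface protein of activated immune cells, stood at 24.8, 23.3 and 24.1 CPM in control and 58.5, 51.4 and 53.2 with BX-795. Not all targets behaved so: PTGS2, the inducible cyclooxygenase, was at 2.14 in the vehicle knockout and at 0.23, with no call, with BX-795. A transcript annotated as AL357060.1 overlaps TNFAIP3 on the other strand.

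Chemokines, which attract leukocytes, split by family member. Of 9 tested genes 5 were higher (55.6%) and 1 lower (11.1%) than control with BX-795, against 27.7% and 28.0% of all genes. All 5 of the higher genes had been higher in the vehicle knockout. The median of 2.43 is the value of CXCL11, which had 3 counts in control, and by BX-795 library the list's median ran from 1.47 to 2.06. CXCL8, which attracts neutrophils, stood at 0.894, 0.235 and 0.833 CPM in control, 12, 13.3 and 12.1 in the vehicle knockout and 17.3, 16.6 and 18.5 with BX-795. Its log2 fold change from control was 4.74 ± 0.366 (edgeR adjusted p = 5.03e-10). CXCL2 stood at 1.61, 1.29 and 1.61, at 4.08, 5.19 and 5.25, and at 20.2, 20.3 and 21.6 CPM (3.78 ± 0.171), and CXCL3 at 0.358, 0.528 and 0, at 1.01, 0.642 and 0.589, and at 8.19, 8.61 and 8.54 CPM. From the vehicle knockout, CXCL2 and CXCL3 rose with BX-795 by 2.10 and 3.49 on the log2 scale. CXCL3 without control replicate 2 or 3 gave 5.52 or 4.23 in place of 4.81. CXCL2 and CXCL3 are close copies, and reads may be split between them.

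CCL20, which attracts cells that carry CCR6, stood at 0.0596, 0.0586 and 0.0595 CPM in control, 1.80, 2.09 and 2.30 in the vehicle knockout and 18.6, 19.0 and 18.3 with BX-795. Control held 3 counts in all and the treated libraries 1347, a ratio of depth-scaled counts of 314 with a 95% interval of 107 to 1520, which covers counting error only. Its mean in the Vehicle group of the iR4 experiment was 0.153 CPM, and CXCL8 had 0.223 CPM there. By contrast CCL5, which attracts T cells, stood at 0.238, 0.352 and 0.416 CPM in control, 1.43, 2.94 and 2.89 in the vehicle knockout and 0.163, 0.192 and 0.147 with BX-795. CCL22, a ligand of CCR4, stood at 0.179, 0.410 and 0.178, at 3.77, 4.38 and 4.39, and at 0.204, 0.144 and 0.258 CPM. Neither CCL5 nor CCL22 had a called difference from control with BX-795. The ligands of CXCR3 were scarce. CXCL11 had 3 counts in control and 25 with BX-795. CXCL10, which was not tested, had 0 in control, 31 in the vehicle knockout and 13 with BX-795. With a floor of 3 counts set for the whole control group, the depth-scaled ratio was 3.03, without the counting error of the 13 counts. The call of CXCL11 (edgeR adjusted p = 0.0394) was lost without control replicate 1 or 3 and without BX-795 replicate 2 or 3, with an adjusted p of up to 0.137.

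Interleukins and growth factors mostly stayed above control. Of 18 tested genes 13 were higher (72.2%) and 4 lower (22.2%) than control with BX-795, against 27.7% and 28.0% of all genes. The median was 0.82 after 1.33, and 12 of the 13 had been higher in the vehicle knockout. IL6, the inducer of the acute phase, stood at 0.596, 1.23 and 1.07 CPM in control, 7.58, 7.91 and 6.75 in the vehicle knockout and 6.48, 6.40 and 6.81 with BX-795 (2.76 ± 0.218; edgeR adjusted p = 7.17e-10). IL32, a proinflammatory cytokine, stood at 2.32, 3.05 and 2.02, at 15.9, 20.7 and 18.8, and at 22.5, 22.4 and 24.4 CPM (3.22 ± 0.215). For both genes the difference between treated and vehicle-knockout libraries was not called. Exons of STEAP1B overlap IL6 and those of the small RNA gene RNU1-125P overlap IL32.

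IL1B stood at 11.1, 12.7 and 11 CPM in control, 43.0, 43.7 and 39.5 in the vehicle knockout and 22.5, 26.2 and 24.5 with BX-795, so that the treated libraries lay between the other groups. IL1RN, which blocks the same receptor, went the other way: 1.73, 2.35 and 2.56, then 5.78, 8.34 and 8.14, then 1.06, 1.2 and 0.957 CPM, a crossing to -1.05 ± 0.239. Of the ligands of the EGF receptor, HBEGF stood at 9.89, 11.7 and 9.46 CPM in control and 39.5, 39.1 and 40.7 with BX-795, while AREG stood at 58.1, 59.2 and 58.3 against 29.9, 29.7 and 30.2. The myeloid growth factors CSF1 and CSF2 remained above control by 0.94 and 1.48, and the angiogenic factor VEGFA by 0.73. IL24 had 16 counts in control and 4 with BX-795, a ratio of 0.175 with a 95% interval of 0.0425 to 0.542. TGFB1, at 0.27, lost its call without control replicate 3 (edgeR adjusted p = 0.0627).

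C3, the central complement component, was among the 8 largest rises. It stood at 2.26, 2.87 and 3.09 CPM in control, 11.7, 16 and 15.8 in the vehicle knockout and 56.6, 54.0 and 57.5 with BX-795 (4.35 ± 0.153; edgeR adjusted p = 1.24e-15). LTB, a membrane-bound TNF family member, had 0 counts in the control libraries, 7 in the vehicle knockout and 219 with BX-795. Its depth-scaled ratio to the same floor in control was 51, without the counting error of the 219 counts. TNFRSF9, a costimulatory TNF receptor, stood at 0.715, 0.879 and 1.31 CPM in control, 10.1, 12.3 and 13.7 in the vehicle knockout and 12.4, 12.2 and 12.8 with BX-795. TNFSF10, the death ligand TRAIL and an interferon target, crossed instead, from 1.03 above control to -1.07.

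Immune checkpoint ligands were divided, with 5 of 9 higher (55.6%) and 4 lower (44.4%) than control with BX-795. Among all genes 27.7% were higher and 28.0% lower. NT5E, the ectoenzyme CD73 that makes adenosine, stood at 53.2, 46.0 and 45.0 CPM in control, 20.9, 19.8 and 20.7 in the vehicle knockout and 142, 135 and 134 with BX-795, an overshoot above control of 1.51 ± 0.0781 (edgeR adjusted p = 6.97e-13). CD274, the ligand of PD-1, remained above control by 0.72 after 1.5 in the vehicle knockout. CD47, the signal that restrains phagocytosis, was at 155, 147 and 149 CPM in control and 87.0, 88.7 and 80.2 with BX-795, and its Vehicle mean in the iR4 experiment was 85.8 CPM.

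Cholesterol synthesis, which the transcription factor SREBP2 drives when sterols are low, crossed control in nearly all genes. Of 26 tested members 2 were higher (7.69%) and 23 lower (88.5%) with BX-795, against 27.7% and 28.0% of all genes. The list's median was -0.79, where 22 members had been higher in the vehicle knockout with a median of 0.78. All 22 of those crossed to below control. With H-151 the list's median was -0.76. SREBF2, the gene of SREBP2, stood at 216, 229 and 210 CPM in control, 277, 300 and 303 in the vehicle knockout and 122, 117 and 124 with BX-795. STARD4, a carrier of sterol between membranes, stood at 129, 116 and 125, at 189, 222 and 217, and at 44.7, 49.5 and 41.6 CPM. Their log2 fold changes from control with BX-795 were -0.85 ± 0.0499 and -1.45 ± 0.0813 (edgeR adjusted p = 5.55e-12 and 2.70e-12). HMGCS1, at the start of the mevalonate pathway, was at -1.43 and INSIG1, which holds SREBP in the endoplasmic reticulum, at -1.22. The members higher with BX-795 were SCAP, the SREBP escort, by 0.27, and ACAT2, whose levels in R4KO_1 are given above. An SREBP site, spelled as TCAC, any base, CCAC, was in 1 of 19 promoter windows of the list (5.26%) and in 1.15% of all windows. A CCAAT box was in 15 of 19 (78.9%) and in 35.7% of all. The list of mitotic genes had a like share, 23 of 29 windows (79.3%), so the box was not particular to cholesterol genes. The Vehicle group of the iR4 experiment was also low in this list, with a median of -0.71 and a STARD4 mean of 50.8 CPM. What the treated libraries and that group share was not tested.

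Fatty acid synthesis genes were lower with BX-795 in 11 of 13 (84.6%, against 28.0% of all genes), with a median of -0.53. SCD, the desaturase that makes oleate, stood at 1490, 1430 and 1610 CPM in control, 1870, 2110 and 2150 in the vehicle knockout and 759, 773 and 755 with BX-795. ELOVL6, an elongase, stood at 97.2, 86.8 and 94.1 CPM in control and 42.2, 39.0 and 41.1 with BX-795 with no called change in the vehicle knockout. Their differences from control were -0.99 ± 0.0568 and -1.18 ± 0.0507. The iR4 experiment's Vehicle group had a median of -0.43 here.

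Genes of ribosome production, which were low in the vehicle knockout, stood close to control with BX-795. Of 48 ribosome biogenesis factors, 47 were lower than control in the vehicle knockout at a median of -0.84, and all 48 rose from there with BX-795. The treated cells then had 18 higher (37.5%) and 10 lower (20.8%) than control at a median of 0.06. Of all genes tested 27.7% were higher and 28.0% lower. BOP1, a processing factor of the large subunit, stood at 165, 177 and 148 CPM in control, 94.1, 101 and 94.5 in the vehicle knockout and 217, 216 and 237 with BX-795. UTP20, of the small subunit processome, stood at 114, 108 and 112, at 58.1, 55.0 and 56.3, and at 86.5, 92.4 and 84.7 CPM, and so remained below control. All 48 cytosolic ribosomal protein genes were lower in the vehicle knockout. With BX-795 14 were higher (29.2%), 18 lower (37.5%) and 16 not called. The 16 host genes of small nucleolar RNAs, all lower in the vehicle knockout at a median of -1.23, had 6 higher (37.5%) and 4 lower (25%) than control. SNHG4 among them stood at 17.7, 20.9 and 18.8 CPM in control, 4.40, 3.21 and 3.96 in the vehicle knockout and 29.9, 30.4 and 29 with BX-795.

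Mitotic genes showed a similar return, with 33 of 36 lower than control in the vehicle knockout (median -0.62). With BX-795 5 were higher (13.9%, against 27.7% of all genes) and 14 lower (38.9%, against 28.0%), at a median of 0.00. AURKA, a kinase of spindle poles, stood at 196, 191 and 208 CPM in control, 107, 101 and 103 in the vehicle knockout and 297, 296 and 298 with BX-795, an overshoot of 0.58 ± 0.0520 (edgeR adjusted p = 4.65e-09). CENPE, a kinetochore motor, remained low, at 129, 124 and 140, at 69.4, 70.8 and 68.1, and at 87.5, 91.8 and 83.0 CPM. PLK1 and CCNB1, regulators of mitotic entry, went from -1.58 and -1.39 in the vehicle knockout to -0.16 and 0.02.

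**Figure D4:**
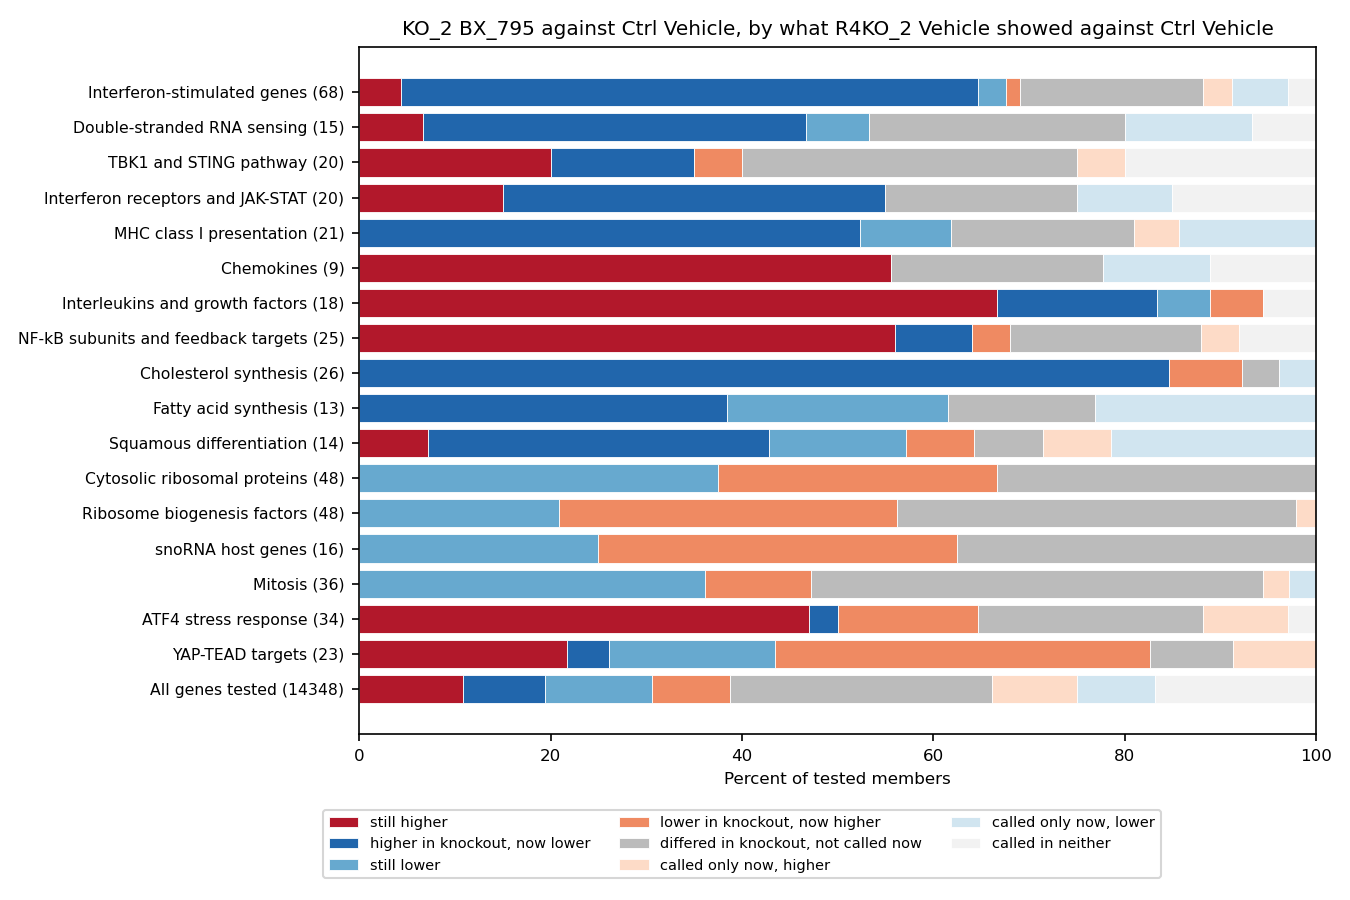
Share of tested members of 17 gene lists and of all 14348 genes tested in each class, by how the difference of the vehicle knockout from control stood with BX-795 (remains, overshoots, no longer called) or whether it arose only there. Overshoot to below control takes 41 of 68 interferon-stimulated and 22 of 26 cholesterol synthesis genes; of the NF-kB genes 14 of 25 remain higher.

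The 8 largest falls from control were those of SERPINB13, MMP12, AKR1B10, MMP13, MMP10, ALDH3A1, CLCA2 and KLK10, of which AKR1B10, MMP13 and MMP10 were called lower in the vehicle knockout as well. Of 14 tested squamous differentiation genes, with KLK10 among them, 3 were higher (21.4%) and 10 lower (71.4%) with BX-795. Of all genes 27.7% were higher and 28.0% lower. Among the 10 lower members 9 were so by 2-fold or more, and the list's median was -1.16 after 0.43. SERPINB13, a protease inhibitor of stratified epithelium and the largest fall among the genes of sufficient level, stood at 48.3, 43.9 and 41.6 CPM in control, 43.6, 50.5 and 47.0 in the vehicle knockout and 3.06, 3.61 and 3.35 with BX-795. Its log2 fold change from control was -3.74 ± 0.0909 (edgeR adjusted p = 2.96e-18), and it was not called in the vehicle knockout. KRT13, a keratin of suprabasal oral epithelium, stood at 368, 440 and 483, at 225, 180 and 205, and at 69.7, 68.3 and 72.2 CPM, a difference that was present in the vehicle knockout and grew. KLK10, a kallikrein protease, stood at 10.1, 12.7 and 9.63 CPM in control, 13.4, 15.5 and 14.4 in the vehicle knockout and 1.75, 1.2 and 1.47 with BX-795. The exceptions were PI3, the elastase inhibitor elafin, KRT10 and ECM1, which were higher by 3.32, 0.72 and 0.30.

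MMP13, a collagenase, had a mean of 133 ± 15.8 CPM (SD, n = 3) in control and stood at 103, 113 and 117 in the vehicle knockout and 14.3, 15.4 and 13.9 with BX-795 (-3.19 ± 0.0788; edgeR adjusted p = 2.96e-18). MMP10, a stromelysin, stood at 25.0, 22.4 and 27.6, at 21, 20.6 and 21.3, and at 2.77, 2.69 and 3.24 CPM, and MMP12, an elastase, fell by 3.27 on the log2 scale. ALDH3A1, an aldehyde dehydrogenase of surface epithelia, stood at 30.0, 32.8 and 32.8 CPM in control, 63.4, 57.5 and 65.4 in the vehicle knockout and 3.51, 4.38 and 3.50 with BX-795. CLCA2, a surface protein of basal keratinocytes, stood at 39.9, 36.5 and 43.9 CPM in control and 5.50, 5.29 and 4.78 with BX-795. Of these, MMP10 (3.06 CPM), ALDH3A1 (4.92) and CLCA2 (8.67) were also low in the Vehicle group of the iR4 experiment, whereas MMP13 (67.4) was less so. MMP9, a gelatinase, ran against these proteases, at 0.179, 0.0586 and 0.0595 CPM in control, 0.424, 0.321 and 0.107 in the vehicle knockout and 4.65, 4.14 and 5.04 with BX-795. Among the matrix genes, PXDN, a peroxidase that crosslinks collagen IV, had 2 counts in control and 918 with BX-795, a ratio of 321 with a 95% interval of 88.5 to 2650. Its level with H-151 was similar, at 10 to 11.4 CPM against 11.8 to 13.5 with BX-795.

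TP63, the transcription factor that sets the basal squamous state, stood at 331, 318 and 319 CPM in control, 238, 274 and 271 in the vehicle knockout and 88.4, 87.2 and 88.2 with BX-795 (-1.88 ± 0.0669; edgeR adjusted p = 1.33e-15). Of 10 squamous markers 9 were below control (90%, against 28.0% of all genes). Of 14 tested keratins 8 were higher (57.1%) and 6 lower (42.9%), against 27.7% and 28.0% of all genes. The basal keratin KRT15 stood at 49.8, 61.8 and 65.9 CPM in control and 7.87, 9.19 and 8.50 with BX-795. KRT5 stood at 806, 886 and 850, at 473, 457 and 479, and at 466, 468 and 463 CPM, a difference from control that the treated libraries shared with the vehicle knockout. KRT81, a hair keratin, stood at 0.775, 0.762 and 1.19 CPM in control, 0.955, 0.962 and 0.696 in the vehicle knockout and 23.7, 25.7 and 25.5 with BX-795 (4.77 ± 0.138), and the simple-epithelial keratins KRT7 and KRT18 were higher by 0.44 and 0.60. KRT81 had a mean of 9.02 CPM in the Vehicle group of the iR4 experiment, and TP63 175 CPM. KRT81 resembles KRT86, so the split of their reads is uncertain.

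Some differences of the vehicle knockout remained, smaller or larger. ANXA10, an annexin, stood at 119, 110 and 115 CPM in control, 30.1, 28.3 and 28.8 in the vehicle knockout and 25.5, 26.7 and 26.0 with BX-795, or -1.98 and -2.14 on the log2 scale. CAV1, the scaffold of caveolae, stood at 1000, 959 and 864, at 352, 344 and 347, and at 396, 384 and 405 CPM. MALL, a membrane raft protein, also remained low, at -1.2 with BX-795. AKR1B10, an aldo-keto reductase, was at -1.23 in the vehicle knockout and fell further, to -3.22 from control. ANXA10 and AKR1B10 were also low in the Vehicle group of the iR4 experiment. Their means there were 41.8 and 10.1 CPM, against 113 and 34.1 in control under the same scaling. Other genes overshot upward: NR4A1, an orphan nuclear receptor, stood at 62.9, 66.0 and 95.8 CPM in control, 27.0, 33.6 and 45.4 in the vehicle knockout and 160, 155 and 160 with BX-795, and XDH, which makes uric acid, at 5.42, 4.51 and 5.0, at 2.07, 2.30 and 2.52, and at 14, 13.6 and 13.5 CPM. THSD4, EDA and EID3 had the same shape, at 1.34, 0.94 and 1.73 above control after -0.95, -1.13 and -1.14. Exons of AC025259.3 overlap NR4A1.

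ATF4 target genes respond to amino acid shortage and other stress. Of 34 tested, 24 were higher (70.6%) and 1 lower (2.94%) with BX-795, against 27.7% and 28.0% of all genes. The list's median was 0.44. In the vehicle knockout 19 members were higher, and the median was 0.34. PSAT1, an enzyme of serine synthesis, stood at 118, 114 and 109 CPM in control, 115, 127 and 111 in the vehicle knockout and 196, 214 and 206 with BX-795 (0.86 ± 0.0726). NUPR1 and INHBE, by contrast, had been higher in the vehicle knockout, at 3.37 and 3.38, than with BX-795, at 1.32 and 1.31. Of 21 MAPK feedback genes 13 were higher (61.9%) and 3 lower (14.3%) with BX-795, at a median of 0.42. The phosphatase genes DUSP4 and DUSP1 remained higher, with DUSP4 at 6.44, 6.39 and 4.94 CPM in control, 16.3, 19.8 and 18.7 in the vehicle knockout and 26.4, 24.1 and 26.4 with BX-795 (2.12 ± 0.199; edgeR adjusted p = 1.11e-08).

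Targets of YAP and TEAD, the effectors of the Hippo pathway, moved upward from the vehicle knockout. Of 23 tested genes 15 were lower than control in the vehicle knockout at a median of -0.29. With BX-795 16 were higher (69.6%) and 5 lower (21.7%), against 27.7% and 28.0% of all genes, and the median was 0.55. A total of 9 crossed from below to above control. AXL, a receptor tyrosine kinase, stood at 52.3, 49.2 and 47.2 CPM in control, 44.7, 41.9 and 41.3 in the vehicle knockout and 96.8, 95.8 and 93.3 with BX-795 (0.94 ± 0.0458; edgeR adjusted p = 2.66e-13). AMOTL2, an inhibitor of YAP and its target, stood at 58.8, 63.7 and 50.3, at 83.9, 88.2 and 73.4, and at 177, 181 and 176 CPM. The mean of AMOTL2 in the Vehicle group of the iR4 experiment was 124 CPM. ANKRD1 ran the other way relative to the vehicle knockout, at 5.63 there and 3.74 with BX-795. The list's median was 0.30 in the Vehicle group of the iR4 experiment.

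The libraries given BX-795 and those given H-151 differed in fewer genes than BX-795 and control libraries did. The BX-795 libraries were called higher than the H-151 libraries in 814 genes (5.67%) and lower in 573 (3.99%), and by 2-fold or more in 65 (0.453%) and 2 (0.0139%). With H-151 the median differences from control were -0.49 for interferon-stimulated genes, -0.73 for MHC class I presentation and -0.76 for cholesterol synthesis. They were -1.09 for squamous differentiation, 0.07 for ribosome biogenesis factors and 0.05 for mitotic genes. The medians of these lists were thus similar with either inhibitor. For NF-kB genes and for interleukins and growth factors the H-151 medians were 0.29 and 0.26, against 0.62 and 0.82 with BX-795. Of the interferon-stimulated genes 13 of 68 were higher and 3 lower with BX-795 than with H-151, and OASL, at a mean of 13.5 CPM with H-151, was lower with BX-795 by 0.85 on the log2 scale. Of other lists, 14 of 25 NF-kB genes and 8 of 18 interleukin and growth factor genes were higher with BX-795 than with H-151, with median differences of 0.34 and 0.35. C3 had a mean of 11.4 CPM with H-151 with a log2 difference of 2.30 between the BX-795 and H-151 groups (edgeR adjusted p = 1.72e-11). IL32 stood at 4.62 CPM with H-151, a difference of 2.32, and IL6 at 2.15 CPM, a difference of 1.62. TNFAIP3, CD83 and IKBKE were also higher with BX-795, by 0.80, 0.89 and 0.59, whereas CXCL3 and CXCL8 were not called different. Of 28 targets of the antioxidant factor NRF2, 19 were lower with BX-795 than with H-151 and 1 higher, with a median difference of -0.26. Glycolysis and hypoxia genes were lower in 12 of 29 and higher in 3, keratins were higher in 6 of 14, and chemokines in 2 of 9. The labels give no dose or time for either compound, so these are differences between the libraries and rank no compound.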

How the data were processed

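Polyadenylated RNA was sequenced on an Illumina HiSeq instrument after TRIzol extraction and DNase I treatment, per the labels' protocols. The tools named, per the submitters' processing notes, are HISAT2 2.2.1, featureCounts 2.0.1, FastQC 0.11.9, DESeq2 1.42.0 and Trim Galore 0.6.4, and hg38 is among the builds. The authors deposited raw counts, found here to be whole numbers, and each of the 35135 Ensembl IDs was used once. No source used here gives the annotation or the strand setting.

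The tests ran in edgeR 4.0.16 under R 4.3.3, with filterByExpr (minimum count 10), TMM factors, quasi-likelihood F tests and Benjamini-Hochberg adjustment at 0.05. The 15 libraries of the knockout experiment entered a single fit with a mean for each of 5 groups. Genes were classed from the fits against control: a difference of the vehicle knockout remains if called in the same direction with BX-795, and overshoots if called in the opposite one. Depth was 17.73 to 18.03 M counts per control library and 21.36 to 27.94 M per BX-795 library. Intervals (95%, exact) cover counting error only. The floor of 3 counts over a group stands in for 0 counts in control and leaves out the counting error of the treated libraries.

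The comparison and its 47 gene lists, of 1091 genes with 996 tested, were chosen with earlier results of these data known. Lists are described by counts and medians, with no set test. Genes named are REXO4, the 8 largest rises and falls among called genes with a mean log2 CPM of 2 or more and groups that do not overlap, the 6 strongest remaining and overshooting differences in each direction, the 3 lowest-p members of each list, and all members of 3 lists (TBK1 and STING pathway, chemokines, interleukins and growth factors). Other list members appear with their log2 difference, to show exceptions, after their values were seen. Some genes that the rule names are not reported here. Replicate numbers did not pair the BX-795 and control libraries (correlations of deviations -0.019, -0.231 and -0.177). Replicates of a group differed by more than sampling noise. Alternatives were other scaling factors, filters, sets of libraries, DESeq2, equal depth, a replicate block and leaving out each library. On simulated counts for this comparison edgeR found 77.5% of the 1.5-fold changes and 95.4% of the 2-fold changes among 14133 genes, with 14 false calls. Only 71 and 65 genes were changed at those folds, far fewer than were called in the data. The simulation therefore cannot show how the fit behaves when so many genes move, and its false calls are no error rate for the comparison. Promoters come from RefSeq (GRCh38.p14), where 54 of 68 tested interferon-stimulated genes matched.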

Additional observations from a re-analysis of the deposited data

How the results depend on the processing

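The counts of genes kept within 1.5 times their reported value under all alternatives run, and 0 of the genes called and tested under an alternative changed direction. Genes higher than control ran from 3559 to 4366 and lower from 3626 to 4033; at 2-fold they ran from 455 to 822 and from 337 to 460. Differences that remained higher ran from 1297 to 1797 and remained lower from 1324 to 1644, and those that overshot to lower from 1052 to 1313 and to higher from 987 to 1282. DESeq2 called 7390 genes against 7996 with edgeR. With libraries thinned to equal depth 7687 were called. With the replicate number as a block 7894 were called, 7843 of them among the 7996, so the block moved no count by over 1.5 times; the numbers are not shown to pair the libraries. With upper-quartile factors 54.4% of called genes were higher, against 49.7%, and the median gene moved to 0.027. Calls were lost for CXCL11 in 5 settings, NLRC3 in 3, including DESeq2, APOBEC3F in 2 and TGFB1 in 1, and calls were gained for TRIM32 in 3, TRIM56 in 1 and TBK1 in 1; the cause was not tested. Counts of list members are small and some moved: without a filter 8 chemokines were higher in place of 5 and 5 squamous differentiation genes in place of 3, as more genes were tested, and the 4 respiratory chain genes below control were no longer called without control replicate 3. The 8 RNA polymerase genes above control became 4 without control replicate 3 and 5 without BX-795 replicate 2, the 8 heat shock chaperones below it 5 without control replicate 1 or BX-795 replicate 2, and the 8 RNA exonucleases below it 5 without BX-795 replicate 1. Members above control rose from 1 to as many as 3 for RNA sensing (in 5 settings) and MHC class I presentation (in 3) and from 5 to 8 for glycolysis (in 1). They rose from 0 to as many as 2 for APOBEC3 deaminases (in 6), and histones below control fell from 2 to 1 in 5. Leaving out a control library moved the fold of PXDN (log2 7.59 to 8.47) and CXCL3. Low counts limit LTB, CCL20, PXDN and the CXCR3 ligands, for which only ratios with wide intervals or ratios to a floor can be given.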

Other observations

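Several groups of genes outside the comparisons above also differed from control with BX-795, beside 27.7% higher and 28.0% lower among all genes. Genes of autophagy and the lysosome, which degrade cell contents, were higher in 14 of 28 and lower in 3 (median 0.16), after 22 higher in the vehicle knockout. HEXA, a lysosomal hexosaminidase, stood at 12.3, 10.5 and 9.81 CPM in control, 20.4, 22.6 and 20.2 in the vehicle knockout and 21.4, 22 and 21 with BX-795, a remaining difference of 0.98 ± 0.0766. Nuclear genes of the respiratory chain were higher in 18 of 36 (median 0.10), where 26 had been lower in the vehicle knockout; CYC1, cytochrome c1, stood at 237, 255 and 220 CPM in control and 345, 348 and 357 with BX-795. Glycolysis and hypoxia genes were lower in 12 of 29 and higher in 5. The glucose transporter SLC2A1 remained low, at 562, 575 and 569 CPM in control, 288, 304 and 317 in the vehicle knockout and 249, 252 and 257 with BX-795; its mean in the Vehicle group of the iR4 experiment was 272 CPM. Targets of NRF2 were split, with 6 of 28 higher and 13 lower. SRXN1, which repairs peroxiredoxins, stood at 11.3, 11.4 and 10.3 CPM in control and 29.2, 29.4 and 28.8 with BX-795, and HMOX1, heme oxygenase, was 1.84 higher on the log2 scale. Replication-dependent histones, mostly without poly(A) tails and so poorly captured here, had 4 of 10 tested genes higher and 2 lower; H2BC12 stood at 37.1, 38.8 and 36.5 CPM in control and 71.4, 79.8 and 72.7 with BX-795.

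Genes of R-loops and m6A, named in the study's title, were below control more often than above it. Of all genes 28.0% were lower and 27.7% higher. Of 29 genes of R-loop processing 16 were lower (55.2%) and 7 higher (24.1%) with BX-795, at a median of -0.20. In the vehicle knockout 11 of the 16 had been lower. The splicing factor SRSF1, whose loss is known to raise R-loops, stood at 548, 517 and 536 CPM in control, 214, 209 and 219 in the vehicle knockout and 345, 354 and 332 with BX-795, between the other groups. SRSF2 stood at 340, 353 and 359, at 156, 157 and 159, and at 238, 227 and 236 CPM. Of 21 m6A writers, erasers and readers 10 were lower (47.6%) and 4 higher (19%), at a median of -0.09. YTHDF1, a reader of m6A, crossed control upward, at 103, 97.6 and 97.7 CPM in control, 82.7, 85.2 and 80.7 in the vehicle knockout and 148, 142 and 143 with BX-795. Of 27 RNA exonucleases 8 were higher and 8 lower, a share near that of all genes. Of 34 genes of homologous recombination and the Fanconi pathway 6 were higher (17.6%) and 12 lower (35.3%), at a median of -0.08. BRCA1 among them crossed from 0.38 above control to -0.31.

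The remaining lists gave the following counts, beside 27.7% higher and 28.0% lower among all genes. Some shares were near these, such as 28.6% higher and 33.3% lower in the TNF superfamily and 30.8% higher in RNA polymerase genes. DNA replication and G1/S genes were higher in 10 and lower in 16 of 39, p53 targets in 11 and 2 of 26, RNA polymerase I and III genes in 8 and 5 of 26, the unfolded protein response in 6 and 10 of 20, and heat shock chaperones in 3 and 8 of 20. HSPA1A and HSPA1B, near-identical inducible chaperones, remained above control by 1.21 and 1.48. Immediate early genes were higher in 9 and lower in 6 of 29, FOXO targets in 6 and 10 of 22, basal adhesion genes in 5 and 7 of 18, and the MYC network in 2 and 4 of 12. Mesenchymal and matrix genes were higher in 16 and lower in 8 of 30, S100 proteins in 2 and 7 of 10, the TNF superfamily in 6 and 7 of 21, and folate and carbon-unit genes in 7 and 4 of 16.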
